A study of Danio rerio with 6 samples.

Results

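The expression of 10 heat shock genes was followed through 6 arrays of whole zebrafish embryos: hsf1, the transcription factor of the heat shock response, the small heat shock genes hspb1 and hspb8, the HSP70 genes hspa8 and hsp70l, the HSP90 genes hsp90ab1 and hsp90aa1.1, the mitochondrial chaperonin genes hspd1 and hspe1, and the collagen chaperone gene serpinh1b. Every probe set whose gene symbol, current or older, was 1 of these 10 was taken, whatever its values. The array held 11 such probe sets, for 9 of the 10 genes, among 15617 probe sets and 8793 genes with a probe set of their own. A further 2 probe sets were shared between a member and another gene: 1 for hsp70.1, hsp70l and hsp70.3, and 1 for hsp90aa1.1 and hsp90aa1.2. They are described as shared, and hsp70l had no probe set of its own.

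Heat shock proteins are molecular chaperones. HSP70 and HSP90 fold client proteins in cycles driven by ATP, small heat shock proteins hold unfolded proteins in a soluble state, and the chaperonin encoded by hspd1 and hspe1 folds proteins inside mitochondria. On heat or other proteotoxic stress, Hsf1 forms trimers, binds heat shock elements and drives transcription of many of these genes, in fly and mammalian cells by releasing RNA polymerase II that is paused near the start site. Spt5 is a subunit of DSIF, which takes part in that pausing and in later elongation. Several heat shock genes also have stress-independent roles in embryos: zebrafish hsp90aa1.1 is expressed in developing muscle, where it folds myosin, and serpinh1b encodes Hsp47, which folds procollagen.

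All embryos were of the TL strain and were raised at the same temperature. Untreated embryos were sampled at 5 hours post-fertilization (hpf, 1 array) and at 21 hpf (1 array). Embryos injected at the start of cleavage with about 2.5 pmol of the Spt5 morpholino, an antisense oligonucleotide tagged with carboxyfluorescein, were sampled at 21 hpf (2 arrays), as were embryos injected with the same amount of a tagged standard control morpholino (2 arrays). No group was heat shocked. The Spt5 morpholino is shown because it alone separates the injected groups; it has 25 bases.
Spt5 morpholino: gtttctctacagtctgtcgctcctg
The labels do not place its binding site on the transcript, and the level of supt5h mRNA therefore checks nothing about the knockdown. The supt5h probe set read 7.72 and 7.42 with the Spt5 morpholino against 7.61 and 7.43 with the control (log2), a difference of 0.05 ± 0.14 (SE; limma adjusted p = 0.804).

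The arrays had median intensities of 18.3 at 5 hpf and 26.9 to 44.0 at 21 hpf, and the arrays of an injected group correlated with r of 0.951 and 0.953 (across probe sets, which are no replicates). GAPDH control probe sets at the 3' and 5' ends, whose ratio reflects RNA quality and labelling, gave a ratio of 1.39 and 1.42 on the Spt5 arrays and 1.70 and 1.76 on the control morpholino arrays. The untreated arrays gave 1.24 at 21 hpf and 0.95 at 5 hpf. For the muscle actin control the ratio was 6.94 and 6.99 on the Spt5 arrays, 9.91 and 9.61 on the control morpholino arrays, and 7.59 and 1.96 on the untreated arrays at 21 and 5 hpf. Both ratios differed between the groups compared here, and their part in the results below was not tested. The labels do not say whether replicates came from separate clutches, so the p-values reflect no more than the spread among these arrays, part or all of it possibly technical. In whole embryos, fewer cells of a type and less RNA per cell cannot be told apart.

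**Figure D1:**
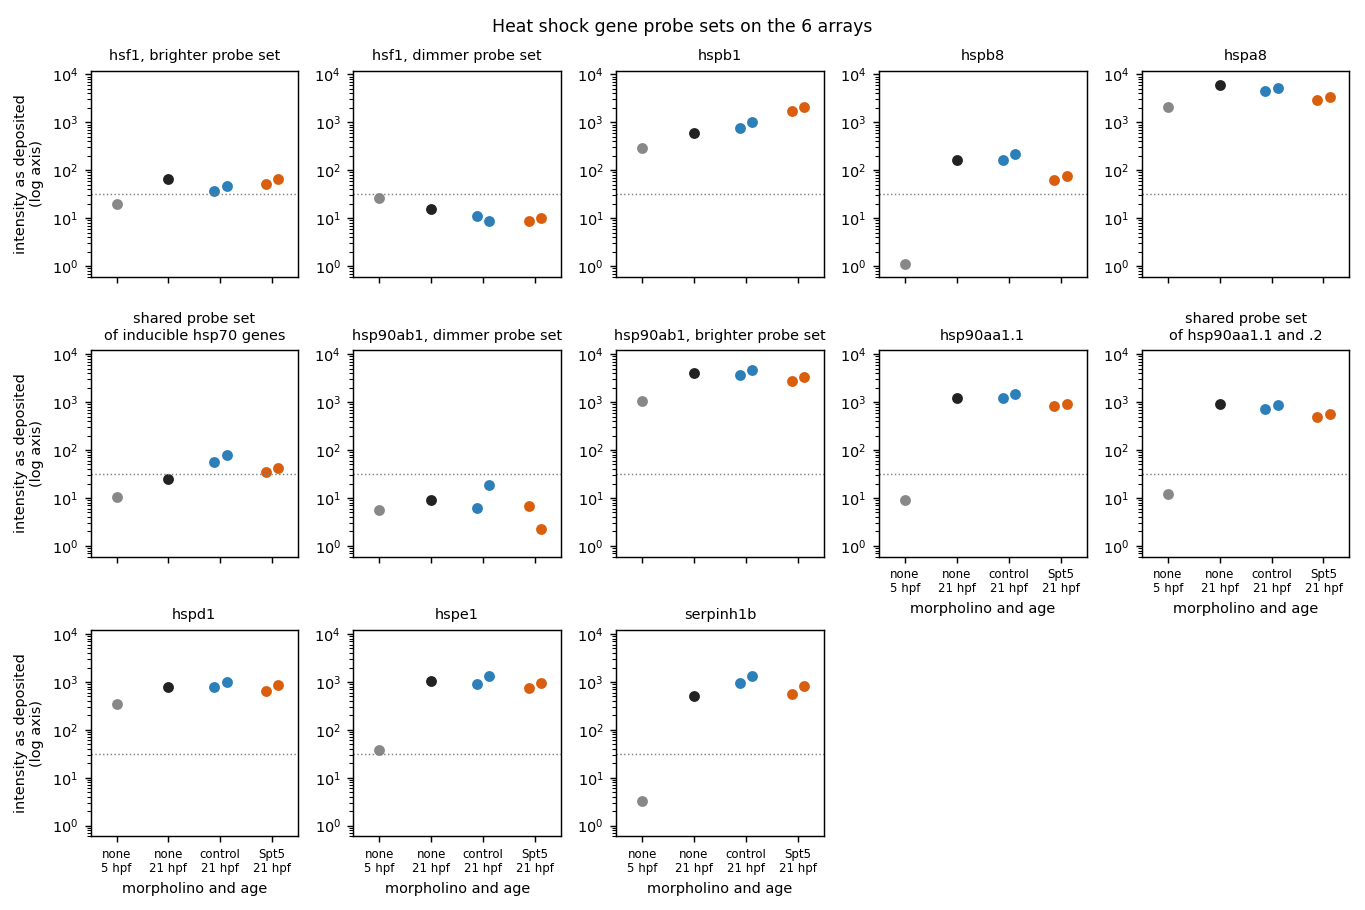
Deposited intensity (log axis) of each member and shared probe set on the 6 arrays, by morpholino and age; each point is 1 array, none means untreated, and the dotted line is the intensity of 32 used as a floor. The Spt5 morpholino arrays lie highest for hspb1, at 1695.8 and 2085.9, and hspb8 reads 1.1 at 5 hpf and 63.6 or more at 21 hpf.

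The comparison of Spt5 with control morpholino embryos asks which genes differ between the injected groups. The heat shock genes did not move as a group. Against the control morpholino, hspb1 and hsf1 were higher and hspb8, hspa8 and serpinh1b lower. hsp90aa1.1, hsp90ab1, hspd1 and hspe1 did not pass the test. Of the 11 member probe sets, 9 were bright enough to be tested (log2 intensity of at least 5 on at least 2 arrays), and these 9 were above 5 on all 4 arrays. In limma 5 of the 9 passed an adjusted p of 0.05, against 47.3% of all 8457 tested probe sets. Of these, 2 were higher (24.3% of all) and 3 lower (23.0% of all), so the share of members called was near the background. Their median log2 difference was -0.20, against 0.04 over all tested probe sets, and their median absolute difference was 0.37 against 0.36. All differences between the injected groups are on the log2 scale after quantile normalization over the 4 injected arrays, with n = 2 and 2.

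The size of the small differences and the balance of higher and lower calls depend on the scaling. In all 13 alternatives hspa8, serpinh1b, hsp90aa1.1, hsp90ab1 and hspe1 stayed below 0. Of the tested members only hspd1 crossed 0 (-0.32 to 0.01). Without further normalization the median tested probe set was at -0.21, and with centring on bacterial spike-in controls at -0.27. These scalings called 305 probe sets higher and 1350 lower, and 910 higher and 3516 lower, where quantile normalization called 2059 higher and 1942 lower. With spike-in centring 2 members were higher and 7 lower, and as deposited only hspb1 and hspb8 passed.

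The transcript of hsf1, the activator of the heat shock response, was higher in Spt5 than in control morpholino embryos. Against untreated embryos of 21 hpf, described below, the Spt5 morpholino group was at 0.13 and the control morpholino group at -0.61. The brighter hsf1 probe set read 6.04 and 5.95 with the Spt5 morpholino against 5.28 and 5.22 with the control. The difference was 0.75 ± 0.10 (SE; 95% interval 0.50 to 0.99; limma adjusted p = 0.00372). The call was lost on the deposited values, where the difference was 0.48 (adjusted p = 0.331), and when dim probe sets were tested too (adjusted p = 0.0567). The dimmer hsf1 probe set lay below log2 5 on every array at 21 hpf, with deposited intensities of 8.9 to 15.5 there, and was not tested.

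hspb1, which encodes the small heat shock protein Hsp27, had the largest rise of the members. It read 11.00 and 11.04 with the Spt5 morpholino against 9.64 and 9.69 with the control. The 2 groups were far apart beside the 0.03 and 0.04 SD within them. The difference of 1.36 ± 0.09 (95% interval 1.13 to 1.59; limma adjusted p = 0.00112) is a 2.56-fold rise, and 5.05% of all tested probe sets differed by at least this much. It passed in each of 13 alternative settings, with differences from 1.05 to 1.38 and adjusted p up to 0.0450. The named genes whose profile over the 6 arrays lay nearest to that of hspb1, among 5682 genes, were fn1a, a fibronectin gene, at a Euclidean distance of 0.27 (log2, each profile centred on its mean), si:dkey-177p2.6 at 0.28 and aoc2, an amine oxidase gene, at 0.30.

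hspb8, which encodes a small heat shock protein that acts with Bag3 in the disposal of misfolded proteins, moved the opposite way. It read 6.29 and 6.20 with the Spt5 morpholino against 7.45 and 7.48 with the control. The control arrays were both higher, by 1.22 ± 0.09 on average, so that hspb8 fell by 1.22 on the log2 scale (95% interval -1.46 to -0.98; limma adjusted p = 0.00132). This is a 2.33-fold fall, and 7.14% of tested probe sets differed by at least as much. It also passed in each of 13 alternative settings, at -1.49 to -1.07. Other small heat shock and alpha crystallin genes could not be set beside them, because of 5 such genes on the array only hspb1 and hspb8 were bright enough to test.

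The nearest profiles to that of hspb8 were tpma, a muscle tropomyosin gene, at a distance of 0.35, anxa6, an annexin gene, at 0.38 and si:ch211-137a8.4 at 0.49. These distances include the 5 hpf array, where hspb8 lay far below the floor, at a deposited intensity of 1.1. tpma is also 1 of the 13 muscle markers counted next, so it adds nothing independent of them. Skeletal muscle markers, listed with earlier results of these data known, mostly fell as hspb8 did. Of 13 tested, 9 fell and 2, tnnt3b and myod1, rose, where 23.0% of all probe sets were lower and 24.3% higher. The median log2 difference of the 13 markers was -1.12. Their summed intensity was 5130 and 5175 with the Spt5 morpholino against 9868 and 9890 with the control. Contractile and metabolic genes carried the fall. The largest falls were those of ckmb, a muscle creatine kinase gene, by 3.37, and mylpfa, a myosin light chain gene, by 2.95. Other contractile genes did not follow: acta1a was at -0.06 (limma adjusted p = 0.594) and tnnt3b was at least 1.65-fold higher. All 13 markers on the array passed the filter for testing. However, tnnt3b passed only through the Spt5 morpholino arrays, and tnnt3a, which fell, only through the control morpholino arrays. Stage markers, listed in the same way, differed as well. Of 7 tested blastula and gastrula genes 5 were higher in Spt5 than in control morpholino embryos (24.3% of all probe sets), with a median of 0.94. Of these 5, vox, pou5f3 and noto read lower at 21 than at 5 hpf in untreated embryos, while vent and ved lay below the floor at both ages. tdgf1, lower at 21 hpf, and sox3, higher at 21 hpf, were not called. nanog, mxtx2, gsc, sox32 and chrd were too dim to test. Of 7 markers of 21 hpf, some of them muscle genes, 6 were lower (23.0% of all), with a median of -2.59. Of these 6, crestin passed the filter only through the control morpholino arrays. The part of muscle in the hspb8 result was not tested, nor was the part of stage in the values of any member.

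Among the HSP70 genes, hspa8, the constitutive cytosolic HSP70, was lower in Spt5 morpholino embryos by a small amount. It read 11.74 and 11.69 against 12.10 and 12.06 in control morpholino embryos. The difference was -0.37 ± 0.09 (limma adjusted p = 0.0258). As deposited it was -0.63 with a wider SE of 0.32, on a scale where the median tested probe set was at -0.21. It did not pass as deposited (adjusted p = 0.161), without the filter (0.128), with centring on the median (0.0903) or with any 1 array left out (0.0749 to 0.119).

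The heat-inducible member hsp70l was seen only through the probe set shared by hsp70.1, hsp70l and hsp70.3, which cannot separate these genes. That probe set was dim, at 5.47 and 5.36 with the Spt5 morpholino against 5.89 and 5.98 with the control. The Spt5 morpholino arrays were both lower, by a log2 difference of -0.52 ± 0.10 (limma adjusted p = 0.0120). It lost the call as deposited (-0.78, adjusted p = 0.0652), without the filter (0.0917), without Spt5 morpholino replicate 2 (0.0662) and without control morpholino replicate 2 (0.0559). A probe set annotated to hsp70.3 alone read 5.27 and 4.59 against 5.13 and 5.46, with overlapping groups and a limma adjusted p of 0.275. Thus hsf1 was higher in Spt5 morpholino than in control morpholino embryos while the shared probe set of its inducible targets was lower. The probe set of hsp70.3 alone did not pass. Set beside untreated embryos, described below, these genes did not move in opposite ways in the Spt5 morpholino group. There hsf1 was at 0.13 (log2) and the shared probe set was at least 1.37-fold higher. In the control morpholino group hsf1 was at -0.61 and the shared probe set at least 1.96-fold higher.

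Both HSP90 genes read lower in Spt5 morpholino embryos without passing the test. hsp90aa1.1, the muscle HSP90, read 9.98 and 9.80 with the Spt5 morpholino against 10.29 and 10.18 with the control. The difference of -0.34 ± 0.11 (95% interval -0.63 to -0.06) had a limma adjusted p of 0.0529, just above the threshold. It passed under 5 of 13 alternatives, with differences from -0.69 to -0.27. The probe set shared with hsp90aa1.2 gave a like value of -0.31 ± 0.10 (limma adjusted p = 0.0537), from 9.23 and 9.09 against 9.50 and 9.45. The muscle markers given above were lower in the same arrays, and their part in these values was not tested.

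The constitutive HSP90 gene hsp90ab1 read 11.67 and 11.72 with the Spt5 morpholino against 11.87 and 11.93 with the control. The difference of -0.20 ± 0.09 had a 95% interval of -0.44 to 0.03 and a limma adjusted p of 0.130. Its dimmer probe set had deposited intensities of 2.2 to 19.0 on the 6 arrays and was not tested. The paralog hsp90aa1.2 went the other way in its brighter probe set, at 6.90 and 6.83 against 6.38 and 6.49, a rise of 0.43 ± 0.10 (limma adjusted p = 0.0190), and its second probe set differed by 0.30 (adjusted p = 0.0993). The call on the brighter probe set was lost as deposited (0.22, adjusted p = 0.718), with spike-in centring (0.16, adjusted p = 0.260), without the filter (0.112), and when either Spt5 array (0.0857 without the first, 0.0654 without the second) or the first control array (0.0916) was left out.

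The mitochondrial chaperonin genes differed least. hspd1, which encodes Hsp60, read 9.62 and 9.67 with the Spt5 morpholino against 9.70 and 9.68 with the control. hspe1, which encodes its cofactor Hsp10, read 9.85 and 9.86 against 9.89 and 10.04. The differences were -0.04 (95% interval -0.27 to 0.19; limma adjusted p = 0.724) for hspd1, which was 0.01 with centring on the median, and -0.11 (-0.37 to 0.15; adjusted p = 0.403) for hspe1. These intervals do not show that the genes were equal. With spike-in centring both were called lower, at -0.32 (limma adjusted p = 0.0471) and -0.43 (adjusted p = 0.0180). In the RefSeq gene table of assembly GRCz12tu hspd1 and hspe1 are direct neighbours, with 0 genes between them; in mammals the pair shares a bidirectional promoter.

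**Figure D2:**
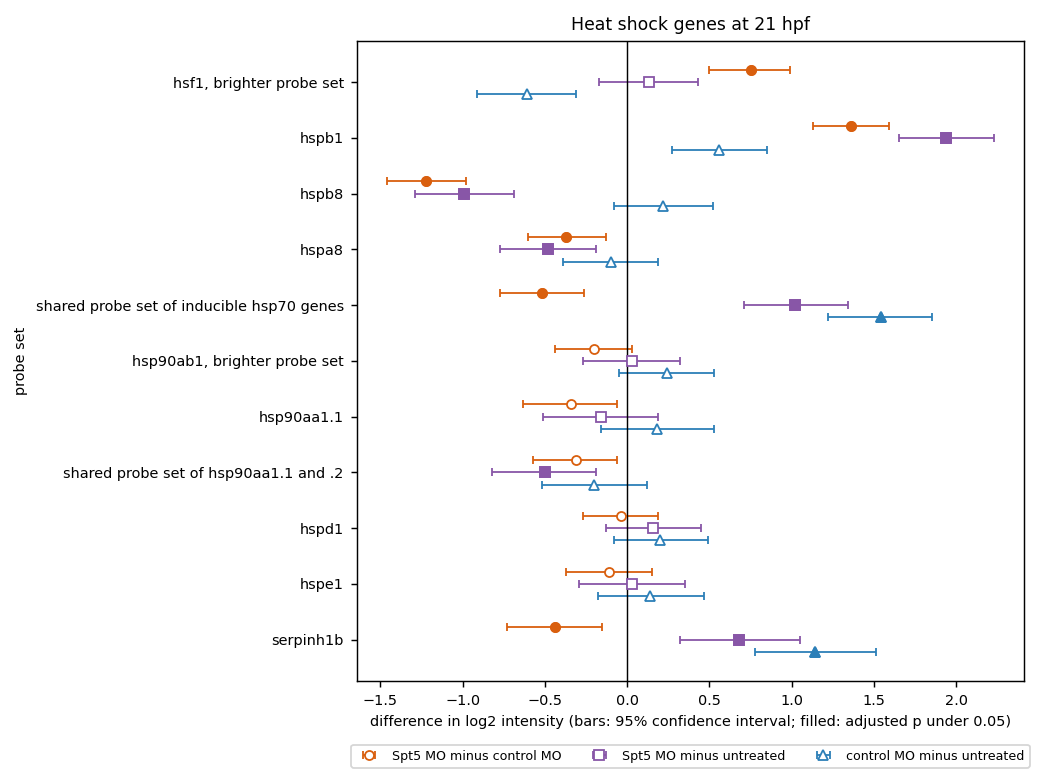
Difference in log2 intensity of each tested member and shared probe set at 21 hpf, for Spt5 against control morpholino, Spt5 morpholino against untreated and control morpholino against untreated embryos; bars are 95% confidence intervals and filled points have a limma adjusted p under 0.05. hspb1 lies above 0 in all 3 comparisons, at 1.36, 1.94 and 0.56, and serpinh1b lies below 0 in the first, at -0.44, and above 0 in the others, at 0.68 and 1.14.

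serpinh1b, whose product binds procollagen in the endoplasmic reticulum, was lower in Spt5 than in control morpholino embryos. It read 9.45 and 9.63 against 9.91 and 10.05. The difference of -0.44 ± 0.11 passed (limma adjusted p = 0.0284), but not as deposited (0.112), without the filter (0.140) or with any 1 array left out (0.0555 to 0.119). As deposited the difference was -0.70 with a wider SE of 0.32. Of 8 tested genes of the partners of serpinh1b in collagen synthesis, the 4 collagen genes fell, where 23.0% of all probe sets were lower. Of the 4 collagen-modifying enzyme genes 3 rose, where 24.3% of all were higher.

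Among the collagens, col9a1b fell by 2.11 ± 0.16 (log2; limma adjusted p = 0.00122). col2a1a fell by 1.24 ± 0.11 (adjusted p = 0.00170 in limma), col1a2 by a log2 difference of -1.21 ± 0.09 and col1a1a by -1.13 ± 0.13. Outside this list, col8a1a, counted like col2a1a among the notochord and cartilage markers, was at 0.04 ± 0.12 (limma adjusted p = 0.793). Among the enzymes, the prolyl 4-hydroxylase genes p4ha1b and p4ha2 rose by 1.35 ± 0.13 and 1.28 ± 0.09 (limma adjusted p = 0.00179 and 0.00121). The lysyl hydroxylase gene plod3 rose by 0.33 ± 0.10 (adjusted p = 0.0453 in limma), a call that held in 5 of 13 alternatives, while plod1a was at -0.23 (adjusted p = 0.0992). Of 4 tested notochord and cartilage markers tbxta rose and col2a1a, already counted above, fell. The summed intensity of the 5 on the array was 668 and 673 on the Spt5 arrays against 957 and 1045 on the control arrays, but without col2a1a it was 370 and 385 against 317 and 301. The part of these tissues in the serpinh1b result was not tested.

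**Figure D3:**
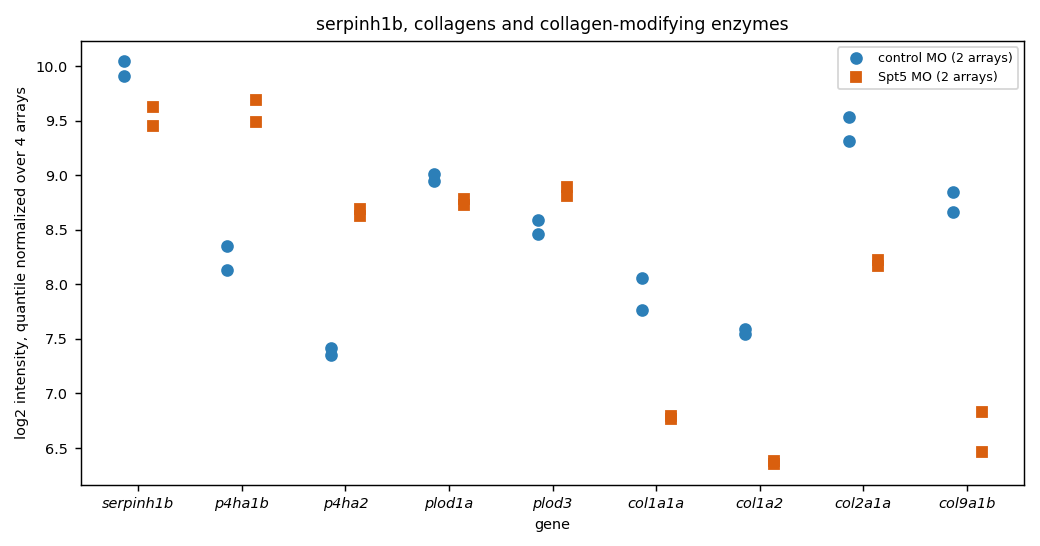
Quantile-normalized log2 intensity of serpinh1b and of the 8 tested genes of collagen synthesis on the 2 control morpholino (circles) and 2 Spt5 morpholino (squares) arrays; levels of different genes are not comparable. The 4 collagen genes lie lower with the Spt5 morpholino, col9a1b by -2.11, and p4ha1b and p4ha2 lie higher, by 1.35 and 1.28.

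**Figure D4:**
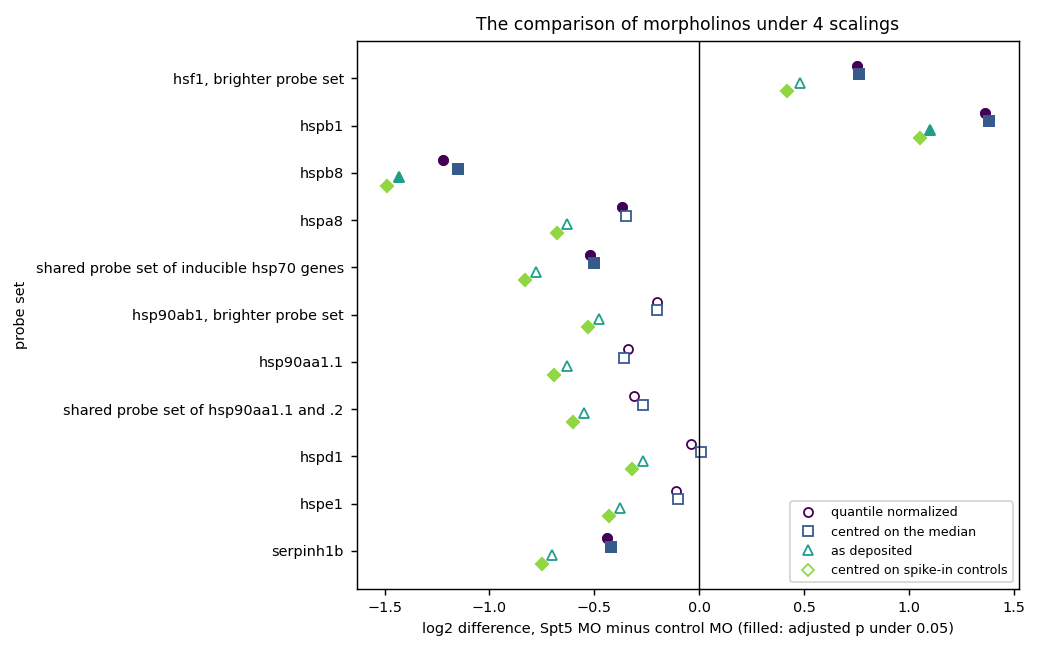
Log2 difference of each tested member and shared probe set between Spt5 and control morpholino embryos under 4 scalings of the arrays; filled points have a limma adjusted p under 0.05. hspb1 stays between 1.05 and 1.38 and hspb8 between -1.49 and -1.15, while the deposited and spike-in scales lie below the other scales by about the shift of the median probe set.

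The untreated array at 21 hpf shows where each injected group stands beside uninjected embryos of the same age. These fits used all 5 arrays at 21 hpf, with the lone untreated array assumed to vary like the injected groups, and they share arrays with each other and with the comparison above. Against untreated embryos, 4 of 9 tested members were called in Spt5 morpholino embryos in limma, 2 higher and 2 lower, where 43.9% of 8701 probe sets were called, 23.0% higher and 20.9% lower. In control morpholino embryos it was 1 of 9, a higher one, where 2.87% were called and 1.75% were higher.

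On the scale of these 5 arrays hspb1 read 9.13 in untreated embryos, 9.66 and 9.72 with the control morpholino and 11.05 and 11.10 with the Spt5 morpholino. Both injected groups lay above the untreated array. The Spt5 morpholino group was 3.85-fold above it (1.94 ± 0.11; limma adjusted p = 0.00109), a call kept under each of 7 alternatives. The control morpholino group was 0.56 ± 0.11 above it, with an adjusted p of 0.0758.

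hspb8 read 7.27 in untreated embryos, 7.47 and 7.51 with the control morpholino and 6.33 and 6.23 with the Spt5 morpholino. The Spt5 morpholino group alone lay below the untreated array. It was at -0.99 ± 0.12 (log2; limma adjusted p = 0.00377) and the control morpholino group was at 0.22 (adjusted p = 0.308). The Spt5 morpholino call held in 6 of 7 alternatives. Skeletal muscle markers had a summed intensity of 9397 in untreated embryos and of 5273 and 5322 with the Spt5 morpholino on this scale.

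For hsf1 the untreated array lay nearer to the Spt5 morpholino group. Its brighter probe set read 5.91 untreated, 6.08 and 5.99 with the Spt5 morpholino against 5.32 and 5.27 with the control. The control morpholino arrays were the low ones. Against untreated embryos the Spt5 morpholino group was at 0.13 ± 0.12 (limma adjusted p = 0.415) and the control morpholino group at -0.61 ± 0.12 (adjusted p = 0.0699), and neither passed.

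For serpinh1b and the shared probe set of inducible HSP70 genes, both injected groups lay above the untreated array. serpinh1b read 8.88 untreated, 9.95 and 10.09 with the control morpholino and 9.47 and 9.66 with the Spt5 morpholino. Its rise over untreated embryos was 1.14 ± 0.14 with the control morpholino (limma adjusted p = 0.0378), the only member call in that comparison, and 0.68 ± 0.14 with the Spt5 morpholino (adjusted p = 0.0168; called in 3 of 7 alternatives). The control morpholino call was lost as deposited (0.299), without the filter (0.254) and with any 1 of the 4 injected arrays left out (0.0958 to 0.113).

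The shared HSP70 probe set read 4.43 untreated, 5.93 and 6.02 with the control morpholino and 5.51 and 5.40 with the Spt5 morpholino. Since the untreated value lies below the floor of log2 5, the rise is a lower limit. It was at least 1.96-fold with the control morpholino and at least 1.37-fold with the Spt5 morpholino. The tests do not apply to these limits but to the measured values. Those differed by 1.54 ± 0.12 (limma adjusted p = 0.0178) and 1.02 ± 0.12 (limma adjusted p = 0.00382). The probe set entered this fit only through the injected arrays, where it was high. The control morpholino call was lost without the filter (limma adjusted p = 0.224) and with any 1 injected array left out. The Spt5 morpholino call held in 5 of 7 alternatives. In the control morpholino group, collagen enzymes rose too: p4ha1b by 1.08 ± 0.16, p4ha2 by 0.85 ± 0.11 and plod1a by 1.14 ± 0.11 (limma adjusted p = 0.0439, 0.0389 and 0.0264). Each of these enzyme calls held in 1 of 7 alternatives. Over all tested probe sets 1.75% were higher in this comparison. The rest of the collagen list was not called: plod3, col2a1a and col9a1b were at 0.46, 0.27 and 0.11. col1a1a and col1a2 lay the other way, at -0.74 and -0.41.

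Of the remaining members only hspa8 was called against untreated embryos, and only in the Spt5 morpholino group. hspa8 read 12.26 untreated, 12.18 and 12.14 with the control morpholino and 11.81 and 11.76 with the Spt5 morpholino. Only the latter passed, at -0.48 ± 0.11 (limma adjusted p = 0.0242), and it passed in 3 of 7 alternatives. hsp90ab1, hsp90aa1.1, hspd1 and hspe1 lay within -0.16 to 0.24 of the untreated array in both injected groups, with adjusted p from 0.278 to 0.869 in limma. The probe set shared by hsp90aa1.1 and hsp90aa1.2 read 9.70 untreated and 9.26 and 9.13 with the Spt5 morpholino, a difference of -0.50 ± 0.12 (limma adjusted p = 0.0268; called in 3 of 7 alternatives).

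The untreated arrays at 5 and 21 hpf, before and after gastrulation and the start of organ formation, give the course of the heat shock genes through early development, with 1 array each and no test. After quantile normalization hspb8, hsp90aa1.1, serpinh1b and hspe1 were far higher at 21 hpf, while hspb1, hspa8, hsp90ab1 and hspd1 were bright at both ages. As deposited the latter genes were also higher at 21 hpf, by log2 differences of 1.04 to 1.96. Of 10 members above the floor at either age, 4 were at least 2-fold higher at 21 hpf by their measured values and 1, the dimmer hsf1 probe set, was at least 2-fold lower. That hsf1 value rests on a reading below the floor, and counted at the floor its fall is shown only to be at least 1.14-fold. The background was 63.0% of 9294 probe sets, 30.2% higher and 32.8% lower.

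serpinh1b read 2.54 at 5 hpf and 8.65 at 21 hpf on the scale of these 2 arrays, at least 12.5-fold higher at the later age. hsp90aa1.1 read 3.95 and 9.73, at least 26.5-fold higher, and the probe set it shares with hsp90aa1.2 was at least 20.6-fold higher. hspb8 read 1.15 and 7.19, at least 4.56-fold higher. The 5 hpf values of all 3 genes lay below the floor, which is why only lower limits are given.

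hspe1 was above the floor at both ages, at 5.61 and 9.52, and 15.0-fold higher at 21 hpf. Its neighbour and partner hspd1 read 8.80 and 9.19, a difference of 0.40. As deposited the log2 differences were 4.77 for hspe1 and 1.19 for hspd1. The genes of the 2 chaperonin subunits thus differed in their course between these arrays. Skeletal muscle markers, all 13 of which lay under a deposited intensity of 32 at 5 hpf, had a summed deposited intensity of 105 at 5 hpf and 10587 at 21 hpf, and 6 of 8 collagen synthesis genes were at least 2-fold higher at 21 hpf.

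hspb1 read 8.53 and 8.87, hspa8 11.85 and 11.68, and the brighter hsp90ab1 probe set 11.01 and 11.04. Their differences of 0.35, -0.17 and 0.03 hold for quantile-normalized values only: as deposited they were 1.04, 1.56 and 1.96, since the median probe set was then 0.70 higher at 21 hpf, against -0.16 after quantile normalization. On the deposited scale and with spike-in centring 9 of 9 members above the floor were at least 2-fold higher at 21 hpf, with backgrounds of 44.6% and 44.0%. The hsf1 probe sets disagreed: the brighter one read 4.86 and 5.73, at least 1.66-fold higher at 21 hpf, and the dimmer one 5.18 and 3.17, at least 1.14-fold lower.

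**Figure D5:**
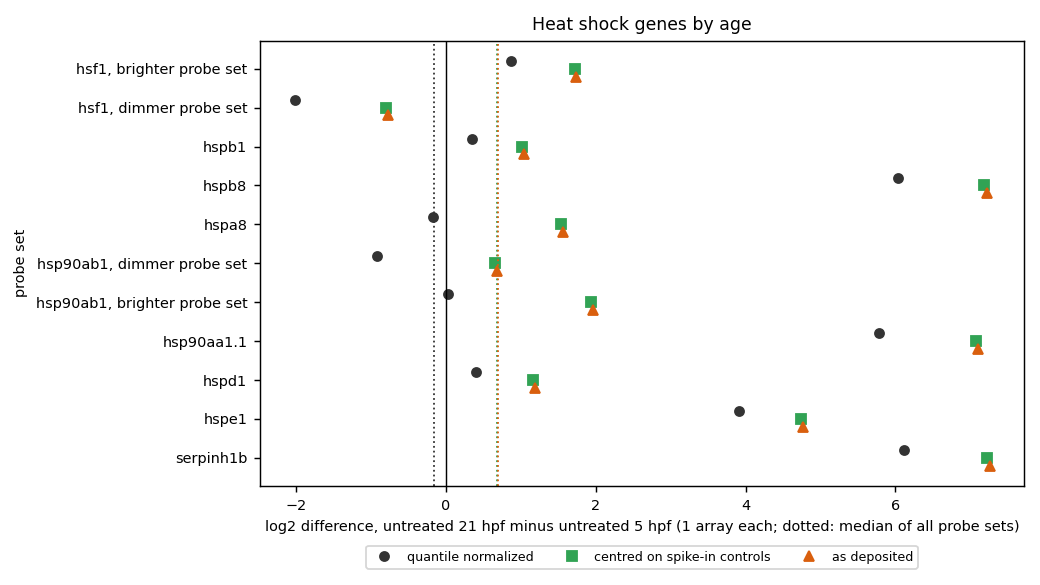
Log2 difference of each member probe set between untreated embryos at 21 and 5 hpf (1 array each) on 3 scales, with the median of all probe sets dotted. hspb8, hsp90aa1.1, serpinh1b and hspe1 lie at 3.91 or more on every scale, whereas hspa8 moves from -0.17 on the quantile-normalized scale to 1.56 as deposited.

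The other genes of the chaperone network, counted from lists of HSP70, HSP90, HSP40 and small heat shock genes with their cofactors, heat shock factors and mitochondrial partners, changed in both directions. Of 50 tested genes outside the members, 12 rose and 6 fell in Spt5 against control morpholino embryos, 36.0% in all, with a median of 0.07, where 47.3% of all probe sets were called, 24.3% higher and 23.0% lower. These shares of all probe sets are also the background for the counts of single lists below. With spike-in centring 2 of 49 genes were higher and 17 lower, and as deposited 1 and 4 of 50. Against untreated embryos 12 of 51 rose and 7 fell with the Spt5 morpholino, 37.3% against 43.9% of all probe sets. With the control morpholino 1 of 51 was called, dnajb1b, an HSP40 gene named here after its values were seen, at 0.78 ± 0.12 (limma adjusted p = 0.0447; called in 0 of 7 alternatives, the lowest adjusted p being 0.0564).

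Of 3 tested regulators outside the members 1 rose and 1 fell. hsf2, a second heat shock factor, read 7.68 and 7.61 with the Spt5 morpholino against 6.67 and 6.54 with the control, a rise of 1.04 ± 0.10 (limma adjusted p = 0.00192) that passed in all 13 alternatives. hsbp1a, the gene of a protein that binds heat shock factors, fell by 0.78 ± 0.10 (adjusted p = 0.00360 in limma). Its brighter paralog hsbp1b was at 0.00 ± 0.10 (adjusted p = 0.973 in limma). Beside untreated embryos of the same age, hsf2 was at 0.59 ± 0.12 in the Spt5 morpholino group (log2, limma adjusted p = 0.0175). That call held in 2 of 7 alternatives. In the control morpholino group hsf2 was at -0.44 ± 0.12 (limma adjusted p = 0.125), which did not pass. The difference in hsf2 between the injected groups thus includes a control group that read below the 1 untreated array, by a difference that was not called.

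Among HSP70 relatives 1 of 6 tested genes rose, hspa14, by 0.50 ± 0.11 (limma adjusted p = 0.0191; called in 7 of 13 alternatives). The nucleotide exchange factor gene hspa4a fell by 0.69 ± 0.10 (adjusted p = 0.00579 in limma). Of 14 tested genes of HSP90 relatives and cochaperones 5 rose, among them the HSP90 genes hsp90aa1.2 and trap1 (named after their values were seen), and 1 fell; the cochaperones alone gave 3 of 12 higher and 1 lower. The counts became 0 higher and 3 lower of 12 tested after spike-in centring, 0 and 0 of 13 as deposited in limma (0 higher and 1 lower at an unadjusted p under 0.05), and 1 and 0 of 16 without the filter. With 1 array left out 1 to 4 of the 14 were higher, the fewest without Spt5 morpholino replicate 1 (1) and control morpholino replicate 1 (2). The immunophilin genes fkbp5 and fkbp4 were at the ends. With control values of 4.17 and 4.27 below the floor, fkbp5 was at least 1.09-fold higher. Its test applies to the measured difference of 0.90 ± 0.10 (limma adjusted p = 0.00241). The gene fkbp4 fell by 0.61 ± 0.10 (limma adjusted p = 0.00788).

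Of 13 HSP40 genes, whose products deliver clients to HSP70, 3 rose and 1 fell. dnajc3b, of the endoplasmic reticulum, rose by 0.89 ± 0.11 (limma adjusted p = 0.00321). dnajc9 fell by 1.26 ± 0.24 (adjusted p = 0.0124 in limma), with the Spt5 morpholino arrays apart at 5.86 and 5.13. By age 9 of 13 read at least 2-fold lower at 21 than at 5 hpf and 1 higher, with a median of -1.69 and a background of 32.8% lower. As deposited it was 7 of 14 lower and 3 higher, with a median of -0.94 and a background of 17.7% lower.

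Among 7 genes of HSP70 nucleotide exchange and disposal 2 rose and 2 fell. Of the 2 falls 1 was that of hspa4a, already counted above among the HSP70 relatives. grpel1, a mitochondrial exchange factor gene, rose by 0.56 ± 0.11 (limma adjusted p = 0.0141; called in 8 of 13 alternatives), and bag4 fell by 0.77 ± 0.11 (adjusted p = 0.00541 in limma). Of 8 genes of mitochondrial import and proteolysis 1 passed, the protease gene afg3l2, which fell by 0.46 ± 0.14 (limma adjusted p = 0.0437; called in 6 of 12 alternatives), and tomm22, a gene of the outer membrane import complex, had the largest upward difference at 0.21 (adjusted p = 0.111).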

How the data were processed

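RNA of whole zebrafish embryos was measured on 6 Affymetrix arrays, grouped by their titles. The authors deposited linear intensities, 1 per probe set and array. GCRMA is named in the submitters' processing notes, and its version and settings were not found in the labels. The deposited intensities did not share a distribution, so log2 values were quantile normalized over the 4 injected arrays, the 5 arrays at 21 hpf or the 2 untreated arrays, after 115 control probe sets were left out (15502 remained). The number of arrays limits the precision.

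Probe sets with log2 of at least 5 (intensity 32) on at least 2 arrays of a fit entered a two-sided test in limma 3.58.1 (R 4.3.3; lmFit, eBayes), with p-values adjusted by Benjamini-Hochberg over all tested probe sets and a threshold of 0.05. The steps were first tested on simulated data. Ages were compared with no test, over probe sets at log2 5 or more on at least 1 array. Where a whole group lay below log2 5, its values were raised to 5 and the fold given as a lower limit. The tests used the values as measured.

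Of the probe sets 10802 had 1 gene symbol, 135 several and 4680 none; 10718 symbols were updated through Entrez identifiers to RefSeq (GRCz12tu) and 84 kept. hsc70, an older alias of hspa8, is another gene by its identifier and was not taken. Where a listed gene had several probe sets, the brightest stood for it. Named genes are all members, the largest rise and fall of each chaperone list, the collagen list and the 3 nearest profiles of hspb1 and hspb8; muscle markers were named as examples. Members and lists were chosen with earlier results of these data known. Alternatives changed the scaling, the filter, the pseudocount, the variance model, the replicate block and the arrays used. Protein and promoter sequences were not analysed here. After quantile normalization, same-numbered injected arrays deviated together with r = 0.25 over probe sets. Their mean log2 spike-in signal also went with the number. It was 7.89 (Spt5) and 7.83 (control) for replicate 1 and 8.29 and 8.24 for replicate 2. With only 2 pairs and no shared batch in the labels, they were not treated as pairs in the main fits.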

Additional observations from a re-analysis of the deposited data

How the results depend on the processing

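Against the control morpholino, 5 of 9 members were called. This became 2 as deposited, 9 with centring on spike-in controls, 2 without the filter and 3 to 3 with 1 injected array left out. Over all probe sets 4001 calls became 1655 as deposited, 874 without the filter and 2390 to 2910 with 1 array left out. Spt5 morpholino against untreated embryos gave 4 member calls, 2 as deposited, 1 without the filter and 2 to 4 with 1 injected array left out, the lowest without Spt5 morpholino replicate 2. Control morpholino against untreated embryos gave 1, and in limma 0 as deposited (1 at an unadjusted p under 0.05), 0 without the filter (3 unadjusted) and 0 to 0 with 1 injected array left out (3 unadjusted each). For the comparisons with untreated embryos, shares over all probe sets under these settings are not given here. Their member counts therefore show nothing particular to the members. By age 5 members were at least 2-fold apart, and 9 as deposited and with spike-in centring. Skipping the filter raised the number of probe sets tested to 15502. Between the morpholinos, spike-in centring called 4426 of 8480 tested probe sets, 3516 of them lower. With the replicate block 6 members and 4439 probe sets were called; hsp90aa1.1 (adjusted p = 0.0314) and the probe set it shares (0.0405) were then called, and no other member changed its call. hsp90ab1 against untreated embryos turned from 0.03 to -0.48 in Spt5 morpholino embryos with spike-in centring (limma adjusted p = 0.0314). Of the single differences tried between the morpholinos, 324 kept direction and side of the threshold, 53 lost the call, 17 gained it and 0 reversed while called. Causes were not tested. Dim signals left 2 member probe sets untested between the morpholinos.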
